A study of Mus musculus with 46 samples.

Results

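The cytosolic ribosomal protein genes encode the proteins of the large (60S) and small (40S) subunits of the ribosome, the machine that translates messenger RNA. They were chosen by name: protein-coding genes whose symbol is Rpl or Rps followed by a number, with or without a closing letter or digit, together with Rpsa, Rplp0, Rplp1 and Rplp2. The kinases of ribosomal protein S6 were left out. The rule found 83 genes among 53465 in the table. Of these, 43 are 60S proteins, 31 are 40S proteins, 3 form the acidic stalk of the 60S subunit (Rplp0, Rplp1 and Rplp2), and 6 are paralogs named after another member (Rpl3l, Rpl7l1, Rpl10l, Rpl22l1, Rpl39l and Rps27l). They lie on 19 chromosomes, with at most 14 on one. Rps4l is also a paralog by name, but the table types it as a pseudogene, so it is not among the 83.

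The libraries are RNA-seq of whole liver, kidney and cerebellum of C57BL/6 mice on postnatal day 23. All animals, controls included, carry P195A, an amino acid change in ADAR1, the enzyme that converts adenosine to inosine in double-stranded RNA. In P195A/p150neg mice the interferon-inducible p150 isoform comes only from the changed allele, whereas P195A/p150pos mice also have an intact p150. After 5 libraries that carried RNA of another organ were left out, 41 remained: 7 p150neg and 7 p150pos livers, 5 and 7 kidneys, and 8 and 7 cerebella. Organs were taken whole, so for every value below, fewer cells of a type and less RNA per cell cannot be told apart.

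Ribosomal protein messenger RNAs are among the most abundant of any cell. Each subunit holds a single copy of nearly every protein, and cells hold the synthesis of the proteins in proportion. Many of these messenger RNAs start with a C followed by a run of C and T letters (a terminal oligopyrimidine, or TOP, sequence), through which mTOR signalling and the protein LARP1 set their translation. A few paralogs replace a standard protein in certain tissues, as Rpl3l does in heart and skeletal muscle and Rpl10l and Rpl39l in testis.

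The start sites are shown as background. Whether they bear on the joint variation of the members between libraries, described below, was not tested. RefSeq promoters (GRCm38.p6) were on hand for 63 of the 83. Each line gives 15 bases before the start and 15 from it on, 5′ to 3′, with the longest run of C and T near the start in capitals. The first 5 have a run of at least 8 letters and the last 4 do not.
Rps6 (chr4:86857353-86857382, minus strand): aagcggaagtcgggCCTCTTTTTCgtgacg
Rps18 (chr17:33955651-33955680, minus strand): tacgtcacttccgCTCTCTCTTCCacagga
Rps27 (chr3:90213634-90213663, minus strand): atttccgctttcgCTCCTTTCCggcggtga
Rplp2 (chr7:141447636-141447665, plus strand): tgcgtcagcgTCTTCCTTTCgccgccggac
Rpl22l1 (chr3:28805493-28805522, plus strand): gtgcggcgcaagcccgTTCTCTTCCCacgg
Rpl35a (chr16:33056438-33056467, plus strand): gcggggcgtgcgTCCCacaaggccgcgcgg
Rps19 (chr7:24884577-24884606, plus strand): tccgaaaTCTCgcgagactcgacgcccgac
Rplp0 (chr5:115559452-115559481, plus strand): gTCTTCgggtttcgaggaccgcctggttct
Rpl7l1 (chr17:46782642-46782671, minus strand): gtgaggCTgcgcaagcgcagtagctgaagc

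A C and T run of at least 8 letters that reached within 10 bases of the annotated start stood in 27 of the 63 members (42.9%). Among the promoters of all genes searched the same way, 13.5% held one. The median longest run was 6 letters in members and 4 in all genes. In the 250 bases before to 50 after the start, on either strand, CCGGAAG stood in 39.7% of members and 9.12% of all promoters. CCATNTT stood in 31.7% and 16.3%, TATAA in 27% and 25.5%, and CACGTG in 7.94% and 7.24%. These are matches of letters, not measured binding. Start sites also differ between annotations, so a member without a run in this window may still have one at its true start.

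Library totals ran from 269213 to 6237043 counts. The 83 genes together made up 0.447 to 2.41% of a library. In every kept library the summed identity genes of its label were present: at least 34639 CPM in liver, 9057 in kidney and 1250 in cerebellum. Some markers from the lists for blood cells and macrophages differed with genotype. In liver, 10 of 10 tested neutrophil markers and 13 of 14 tested macrophage and monocyte markers were called higher in p150neg mice. Summed neutrophil markers were at 2563 to 6680 CPM (read counts scaled to the same library total) in p150neg livers and 92.5 to 382 in p150pos livers. Of the neutrophil markers 1 of 5 tested was called higher in kidney (S100a8) and 1 of 8 in cerebellum (Lcn2). In cerebellum 3 of 10 tested macrophage and monocyte markers were also called higher (C1qa, C1qb and C1qc). Of the erythroid markers, 2 of 10 tested were called lower in p150neg kidneys and 3 of 9 in p150neg cerebella. In whole tissue these counts do not show which cells made the marker RNA, so no entry of blood cells is read from them. The part of such cells in the ribosomal protein values was not tested.

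Between the genotypes no ribosomal protein gene passed the test in any tissue. In liver, 77 of the 83 could be tested and 0 were called higher or lower by edgeR (adjusted p under 0.05 over all genes tested). DESeq2 and limma voom also called 0. An unadjusted p under 0.05 (edgeR) was reached by 1 member, beside 23.3% of all genes tested. Over all 9843 genes tested in liver, 6.94% were called higher and 4.76% lower. In kidney 79 were tested, and 0 were called by each of the 3 tools, beside 0.385% of all genes called higher and 0.309% lower. There 1 member had an unadjusted p under 0.05 (edgeR), beside 8.19% of all genes. In cerebellum 79 were tested, and 0 were called by each tool, beside 0.723% of all genes called higher and 0.274% lower. There 6 members had an unadjusted p under 0.05 (edgeR), beside 9.57% of all genes.

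The fold changes of the members leaned to one side in each tissue. In liver the log2 fold change, p150neg over p150pos, was below 0 in 69 of 77 members, with a median of -0.26 beside -0.04 over all genes. In kidney it was above 0 in 60 of 79, with a median of 0.13 beside -0.07. In cerebellum it was above 0 in 78 of 79, with a median of 0.33 beside 0.00; the exception was Rpl7l1. Members had median standard errors of 0.34 (liver), 0.30 (kidney) and 0.25 (cerebellum). Members varied together between libraries, as described below, and are not independent.

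**Figure D1:**
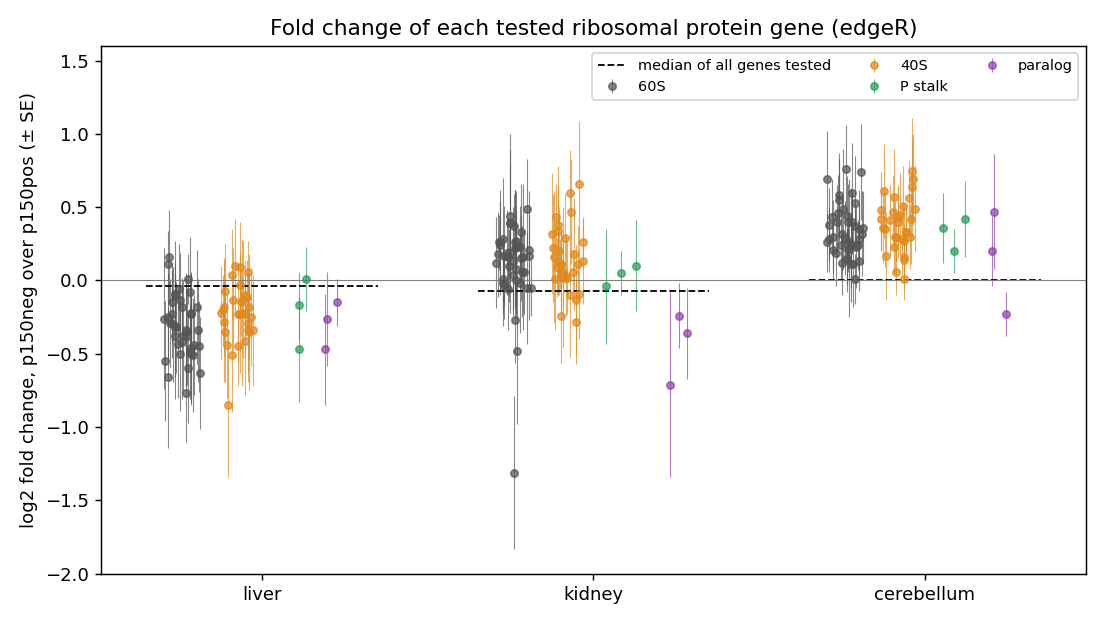
Log2 fold change (p150neg over p150pos, vertical axis, with standard error) of each tested ribosomal protein gene by tissue and class, with the median of all genes tested as a dashed line. Most members lie below 0 in liver (69 of 77) and above 0 in cerebellum (78 of 79), with error bars of the same size as the shifts, and the lowest point is Rpl13a in kidney at -1.31.

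Both subunits lay on the same side of 0 in each tissue; the difference between them was not tested. In liver the median log2 fold change was -0.33 over 40 tested 60S genes and -0.22 over 31 40S genes. In kidney these medians were 0.17 over 42 and 0.11 over 31, and in cerebellum 0.29 over 42 and 0.40 over 31. The 3 stalk genes lay at -0.47 to 0.01 in liver, -0.04 to 0.10 in kidney and 0.20 to 0.42 in cerebellum.

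The summed level of the 83 genes was then set out by library. In p150neg livers it was 5751 to 9923 CPM (median 7288, n = 7). In p150pos livers 6 of 7 lay between 5138 and 10711 CPM, and the liver of animal 13 stood at 20717 CPM. The groups overlapped throughout, and the p150neg median was the higher one (7288 against 6712 CPM). Without animal 13 the median log2 fold change of the members in liver turned from -0.26 to 0.17, with 69 of 77 above 0. The liver direction thus rested on that library.

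In p150neg kidneys the summed level was 10986, 24111, 10838, 10508 and 11957 CPM in animals 1, 3, 8, 9 and 16. In p150pos kidneys it was 8252 to 19933 CPM (median 9687, n = 7), with the highest value in animal 5. The kidney of animal 3 had 269213 counts and that of animal 5 had 1298927, the lowest totals of the kidney libraries kept. Without animal 3 the median log2 fold change was -0.12, and without animal 5 it was 0.36. With both left out it was 0.11, with 64 of 79 above 0.

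In cerebellum the summed level was 4472 to 12463 CPM in p150neg mice (median 6573, n = 8) and 5018 to 7090 CPM in p150pos mice (median 5772, n = 7). The p150neg libraries lay both above and below all 7 p150pos libraries: animals 8, 11 and 16 were higher, at 8731, 12463 and 11653 CPM, and animals 3, 9 and 14 lower, at 5014, 4472 and 4687 CPM. The SD was 3126 CPM in p150neg and 707 CPM in p150pos cerebella. Leaving out any 1 library kept the median log2 fold change between 0.20 and 0.41, with 71 to 78 of 79 members above 0. It was 0.20 without animal 11 (944811 counts) and 0.22 without animal 16.

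**Figure D2:**
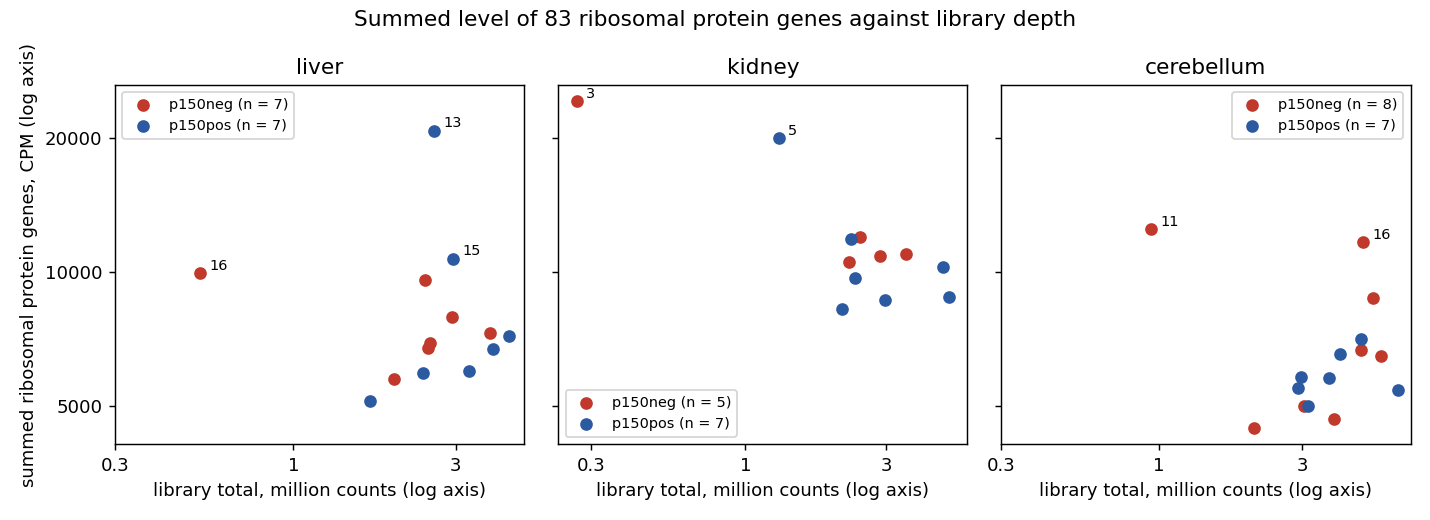
Summed CPM of the 83 ribosomal protein genes (vertical, log axis) against the library's total counts (horizontal, log axis), 1 point per library, red p150neg and blue p150pos, with the animal number beside the high libraries. The liver of animal 13 (20717 CPM) and the kidneys of animals 3 (24111 CPM) and 5 (19933 CPM) lie apart from their groups, and p150neg cerebella spread on both sides of the p150pos ones.

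**Figure D3:**
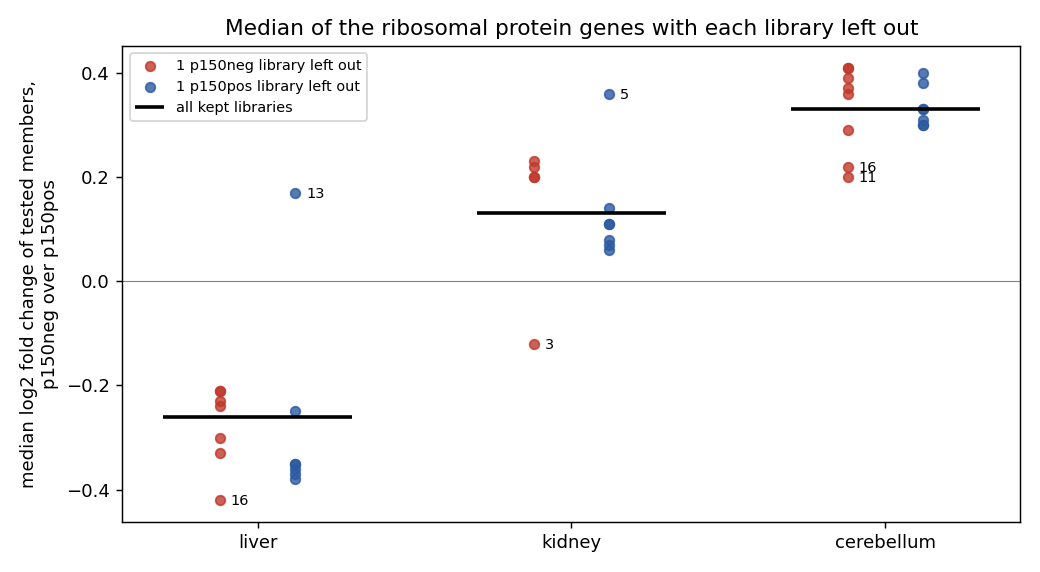
Median log2 fold change (p150neg over p150pos, vertical axis) of the tested members by tissue, with all kept libraries (black line) and with each library left out in turn (points, coloured by the genotype of the library left out, animal numbers beside those that moved it most). The median crosses 0 without animal 13 in liver (0.17) and without animal 3 in kidney (-0.12), and stays between 0.20 and 0.41 in cerebellum.

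The high libraries also differed in other measures. The liver of animal 13 was not shallow, at 2591438 counts, but had the largest mitochondrial share of the kept livers (5.85%) and 14.4% of counts in protein-coding genes with transcripts under 1000 bases. In the other p150pos livers that short-gene share was 6.92 to 10.3%. Among p150neg livers animal 16, also high in ribosomal proteins, had 14.1%. It was 18.8% and 17.8% in the kidneys of animals 3 and 5 and 8.92 to 13.2% in the other kidneys. In the cerebella of animals 11 and 16 it was 11.6% and 10.7%, against 6.24 to 8.59% in the others, and animal 11 had the largest mitochondrial share of the cerebella (4.95%). The median transcript of the members is 775 bases long, against 2433 for all protein-coding genes. Summed erythroid markers were at 5419 CPM in the liver of animal 13, the highest of the p150pos livers, and its neutrophil markers at 382 CPM were below every p150neg liver. In the kidney of animal 5 erythroid markers were at 10593 CPM, the highest of the kidneys. The part of short transcripts, mitochondrial share and erythroid RNA in the high ribosomal protein values was not tested.

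Within a genotype the members varied together from library to library. On log2 CPM with the genotype means removed, the first principal component held 93.2% of the members' variance in liver, 86.4% in kidney and 86.8% in cerebellum. The median correlation between 2 members was 0.93, 0.88 and 0.87 over 14, 12 and 15 libraries. These correlations share the library's depth and composition and are given as a description. The high libraries weigh on them. The members' mean deviation from their tissue medians (log2) was 1.84 in the liver of animal 13 and -0.44 to 0.78 in the other livers. In kidney it was 0.93 and 1.16 in animals 3 and 5, and -0.31 to 0.13 in the others. In cerebellum it was 1.05 and 0.96 in animals 11 and 16, and -0.48 to 0.58 in the others. The median deviation of all genes tested was -2.49 and -0.18 in the kidneys of animals 3 and 5. It was -0.46 and 0.00 in the cerebella of animals 11 and 16 and -0.05 in the liver of animal 13. Genes detected numbered 6919 and 12055 in those kidneys (group medians 18588 and 17487) and 11235 in the cerebellum of animal 11 (group median 19160). Components and correlations were not computed without the high libraries. Each member was also set against the mean of the others: 76 of 77 had r above 0.8 in liver, 66 of 79 in kidney and 71 of 79 in cerebellum.

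Rpl7l1, a relative of Rpl7 thought to act in the nucleolus during ribosome assembly, was the one that moved apart from the block in all tissues. Its r with the mean of the other members was -0.56, -0.22 and -0.35 in liver, kidney and cerebellum, and its between-library SD (log2) was 0.23, 0.35 and 0.29, beside medians of 0.66, 0.52 and 0.51 for the members. In the cerebellum of animal 11, where 77 of 79 members lay above their tissue median, Rpl7l1 was at 48.7 CPM, the lowest of all cerebella. The annotated transcript of Rpl7l1 has 2606 bases, against a members' median of 775. Protein-coding genes of at least 3000 bases had a mean deviation (log2) of -1.50 in that cerebellum. It was -2.53 in the kidney of animal 3 and -0.12 in the liver of animal 13. Rps15a, at 5130 bases, had r of 0.97, 0.96 and 0.90 in liver, kidney and cerebellum. The part of transcript length was not tested. In kidney Rpsa (-0.06), Rpl13a (0.01) and Rpl12 (0.16) also had low r, and in cerebellum Rpl22 (0.41). The kidney values include animal 3, the shallowest library, where 71 of 79 members lay above their tissue median. There Rpsa was at -0.78, Rpl13a at -2.76 and Rpl12 at -1.05 (log2) from their medians. Their r without that library was not computed.

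**Figure D4:**
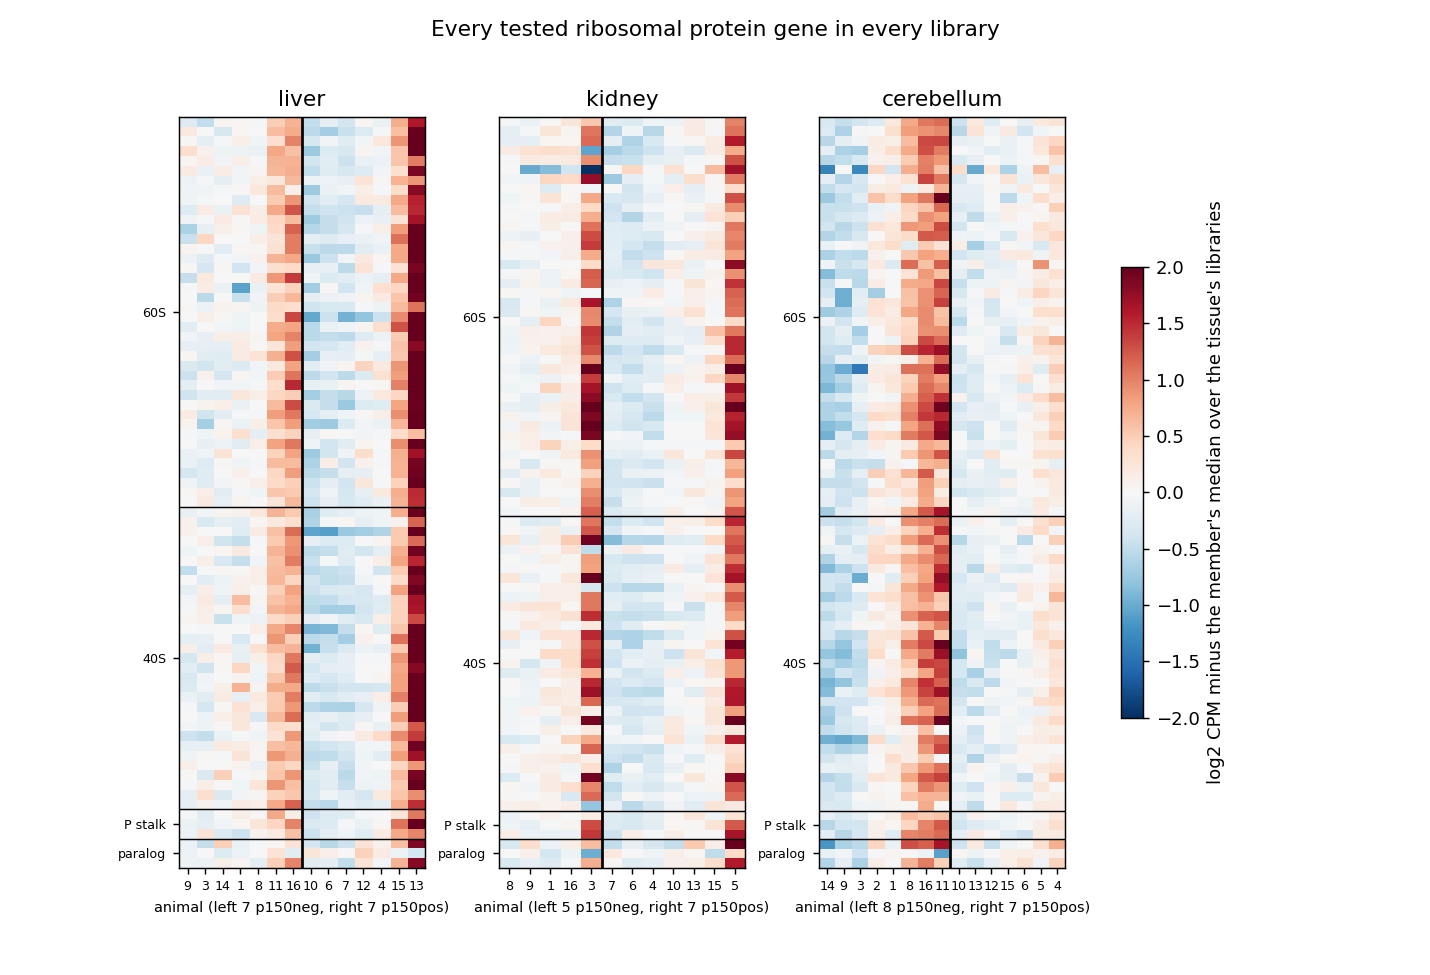
Log2 CPM of each tested member minus its median over the tissue's libraries (rows, grouped by class; colours stop at -2 and 2), for every kept library (columns, animal numbers; p150neg left and p150pos right of the thick line). Red marks members above their median. The reddest columns are the livers of animals 11, 13, 15 and 16 and the kidneys of animals 3 (71 of 79) and 5. In cerebellum they are those of animals 8, 11 and 16. Other columns are paler but also mostly red, among them the p150pos cerebella of animals 4 (70 of 79) and 5 (67 of 79).

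Among the 40S genes Rps21 and Rps3a1 were 2 of the 5 members with the smallest p in liver. Rps21 ran from 20.3 to 55.9 CPM in p150neg livers (median 34.3) and from 20.4 to 224 in p150pos livers (median 33.9). The medians were equal within 1 CPM and the highest value was animal 13's. Its log2 fold change was -0.85 ± 0.49 (SE; adjusted p = 0.330, edgeR), and 0.08 without animal 13. Rps3a1 lay at 59.5 to 126 CPM (median 80.0) and 66.0 to 194 CPM (median 92.3), a log2 fold change of -0.45 ± 0.27 (adjusted p = 0.342, edgeR).

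Rps19, an assembly protein of the 40S subunit whose loss in people causes Diamond-Blackfan anaemia, was at 223, 665, 215, 213 and 261 CPM in the kidneys of p150neg animals 1, 3, 8, 9 and 16. In p150pos kidneys it ran from 140 to 336 CPM (median 148). Every p150neg value thus lay above the p150pos median, while the ranges overlapped. The log2 fold change was 0.60 ± 0.29 (adjusted p = 0.629, edgeR). Without animal 3 it was 0.25 (adjusted p = 0.749, edgeR). Without animals 3 and 5 it was 0.47, with an adjusted p of 0.0522 (edgeR), just outside the threshold. In liver Rps19 was at 0.10 ± 0.32 with all libraries, and without animal 13 at 0.57 with an adjusted p of 0.0754 (edgeR).

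Rps4x, the X-linked S4 protein, ran from 171 to 468 CPM in p150neg kidneys and 122 to 199 CPM in p150pos kidneys, with a log2 fold change of 0.43 ± 0.23 (adjusted p = 0.690, edgeR). The ranges overlapped. In cerebellum Rps27 had 27.7 to 163 CPM in p150neg mice (median 62.3) and 34.2 to 66.2 in p150pos mice (median 47.0), a log2 fold change of 0.69 ± 0.31 (adjusted p = 0.481, edgeR). Rps12 had 14.0 to 45.7 CPM (median 25.2) and 13.1 to 27.8 CPM (median 18.4), at 0.56 ± 0.26 (adjusted p = 0.517, edgeR). Of both genes the p150neg range spanned the p150pos one or nearly so.

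Rps6 encodes the substrate of the S6 kinases downstream of mTOR. RNA counts do not measure what these kinases do to the protein, so nothing on mTOR activity is read from them. Rps6 messenger RNA lay at 62.3 to 102 CPM in p150neg livers and 53.5 to 124 in p150pos livers. Its log2 fold changes were 0.06 ± 0.21 in liver, 0.13 ± 0.21 in kidney and 0.33 ± 0.20 in cerebellum. Rps3, a protein of the messenger RNA entry channel, was at -0.10 ± 0.23, 0.06 ± 0.14 and 0.01 ± 0.14. Rpsa, also known as the laminin receptor precursor, was at 0.09 ± 0.31, 0.09 ± 0.20 and 0.06 ± 0.16. Rps27a, made as a fusion with ubiquitin, was at -0.35 ± 0.34, 0.01 ± 0.35 and 0.30 ± 0.24. None of these 4 passed in any tissue (smallest adjusted p = 0.617, edgeR).

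Among the 60S genes Rpl35a, another gene mutated in Diamond-Blackfan anaemia, had the smallest p of the members in liver. It ran from 40.6 to 92.1 CPM in p150neg livers (median 58.1) and from 52.3 to 263 CPM in p150pos livers (median 75.0), so the p150pos values were mostly the higher ones within overlapping ranges. The log2 fold change was -0.77 ± 0.33 (unadjusted p = 0.0332, adjusted p = 0.166, edgeR). Without animal 13 it was -0.29, with an adjusted p of 0.437 (edgeR). Rpl31 at -0.63 ± 0.38 and Rpl28 at -0.60 ± 0.37 followed, and without that animal they were at -0.11 and -0.03.

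Rpl13a, which in human myeloid cells also takes part in interferon-driven silencing of translation, had the smallest p in kidney. Its p150neg values were 2.00, 0, 4.55, 1.78 and 3.28 CPM in animals 1, 3, 8, 9 and 16, and its p150pos values 4.04 to 14.6 CPM (median 5.13). Only animal 8 reached into the p150pos range. The 0 of animal 3 came from the shallowest library, where 3 counts, the limit that a count of 0 allows, would be 11.1 CPM (counting error only). The log2 fold change was -1.31 ± 0.52 (unadjusted p = 0.0238, adjusted p = 0.443, edgeR), at a median of 12.0 counts per library. Without animal 3 it was -1.20, without animal 5 -0.98 and without both -0.90 (smallest adjusted p = 0.257, edgeR). In cerebellum it was 0.22 ± 0.47, and in liver, at 9.00 counts in the median library, it could not be tested.

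In cerebellum Rpl32 had the smallest p. It lay at 51.2 to 252 CPM in p150neg mice (median 103) and 56.0 to 93.3 CPM in p150pos mice (median 69.2), with p150neg values on both sides of the p150pos ones. Its log2 fold change was 0.76 ± 0.30 (unadjusted p = 0.0203, adjusted p = 0.390, edgeR). Rpl17 was at 0.74 ± 0.33, Rpl3, which reaches into the peptidyl transferase centre, at 0.37 ± 0.17, and Rpl37 at 0.69 ± 0.33. Without animal 11, Rpl17 was at 0.39. In kidney Rpl3 was at 0.37 ± 0.22 (adjusted p = 0.739, edgeR).

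Rpl5 and Rpl11 form the 5S particle that, when assembly fails, binds Mdm2 and stabilises p53. Their log2 fold changes were -0.23 ± 0.30 and -0.44 ± 0.34 in liver, 0.16 ± 0.26 and -0.05 ± 0.38 in kidney, and 0.13 ± 0.20 and 0.44 ± 0.27 in cerebellum. Rpl23 and Rpl26, which also act on the p53 pathway, were at -0.34 ± 0.39 and -0.46 ± 0.37 in liver, 0.10 ± 0.25 and 0.23 ± 0.28 in kidney, and 0.19 ± 0.23 and 0.12 ± 0.22 in cerebellum. Rpl10, added late in 60S assembly, was at -0.25 ± 0.30, 0.01 ± 0.23 and 0.36 ± 0.25 in liver, kidney and cerebellum. Rpl39, a small protein of the exit tunnel, was at -0.66 ± 0.48, 0.17 ± 0.44 and 0.60 ± 0.34. None of these 6 genes passed the test in any tissue.

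The stalk recruits elongation factors to the ribosome. Rplp0, its base, was at 306 to 568 CPM in p150neg livers and 262 to 670 in p150pos livers, with a log2 fold change of 0.01 ± 0.22; in kidney it was 0.05 ± 0.15 and in cerebellum 0.20 ± 0.15. Rplp1 was at -0.47 ± 0.36, 0.10 ± 0.31 and 0.36 ± 0.24 in liver, kidney and cerebellum, and Rplp2 at -0.17 ± 0.23, -0.04 ± 0.39 and 0.42 ± 0.26. The smallest adjusted p of the 3 was 0.495 (edgeR).

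Of the paralogs, Rps27l, a p53-inducible relative of Rps27, was strongly expressed. It had 192 to 389 CPM in p150neg livers (median 232) and 172 to 747 CPM in p150pos livers (median 237). In kidney it was at 239, 576, 251, 261 and 302 CPM in p150neg animals 1, 3, 8, 9 and 16, and at 247 to 832 CPM in p150pos mice (median 289). In cerebellum it was at 37.7 to 122 CPM and 43.8 to 78.1 CPM. The groups overlapped in all tissues, and log2 fold changes were -0.26 ± 0.32, -0.36 ± 0.31 and 0.20 ± 0.24.

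Rpl22l1, a relative of Rpl22 that is held down by it, was at -0.47 ± 0.38 in liver, -0.71 ± 0.63 in kidney and 0.47 ± 0.39 in cerebellum, and Rpl22 itself at -0.50 ± 0.39, 0.33 ± 0.33 and 0.24 ± 0.17. The kidney value of Rpl22l1 rested on animal 5, at 67.7 CPM beside a p150pos median of 9.02. Without it the log2 fold change was 0.18. The liver value was 0.00 without animal 13, and the cerebellum value 0.25 without animal 11. Rpl7l1 was at -0.15 ± 0.16, -0.24 ± 0.22 and -0.23 ± 0.15, and all 7 p150pos cerebella lay between 97.0 and 111 CPM. None of these passed (smallest adjusted p = 0.493, edgeR). Rpl10l had 0 counts in every kept library, Rpl39l was at most at 1.55 CPM and Rpl3l at most at 8.60 CPM in any of them, and all 3 were too low to test.

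Whether the genotype effect of a member differed from one tissue to another was tested with an interaction term. In liver against cerebellum, edgeR called 0 of 79 members, with 8 at an unadjusted p under 0.05, beside 2.67% of all genes called. The median difference of log2 fold changes was -0.63. Rpl35a differed by -1.04 ± 0.42 (adjusted p = 0.216, edgeR) and Rps21 by -1.57 ± 0.64 (adjusted p = 0.220). Rpl28 differed by -1.04 ± 0.47 (adjusted p = 0.278) and Rpl37 by -1.23 ± 0.55 (adjusted p = 0.280). With the animal as a block, since libraries share animals, 0 members had an unadjusted p under 0.05, the median difference was -0.41, and the genes called among all fell from 376 to 197. Without the liver of animal 13 the median difference was -0.14 and 0 members had an unadjusted p under 0.05.

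In liver against kidney 0 of 79 were called and 0 had an unadjusted p under 0.05, beside 1.50% of all genes called. The median difference was -0.39, and 0.11 without the liver of animal 13. The smallest adjusted p-values belonged to Rpl35a (-0.87 ± 0.47), Rps4x (-0.67 ± 0.43), Rpl22 (-0.82 ± 0.53) and Rpl28 (-0.80 ± 0.54). In kidney against cerebellum 0 of 79 were called and 1, Rpl13a at -1.51 ± 0.71, had an unadjusted p under 0.05, beside 0.114% of all genes called. Rps13 (-0.68 ± 0.35), Rps27l (-0.58 ± 0.36) and Rpl22l1 (-1.11 ± 0.70) followed. Only edgeR was run on these interactions.

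Between tissues of the p150pos mice many members differed. In kidney over cerebellum, 73 of 79 tested members were called higher and 0 lower by edgeR, where 31.9% of all genes were called higher and 33.4% lower. The median log2 difference was 1.00. Scaling by library totals alone gave 72 higher and 0 lower, and leaving out the kidney of animal 5 gave 72 higher and 1 lower, Rpl22l1 at -0.76. Rps2 was at 169 to 293 CPM in p150pos kidneys and 64.6 to 94.9 in p150pos cerebella without overlap, a log2 difference of 1.71 ± 0.13. Rplp0, at 432 to 621 against 181 to 262 CPM, differed by 1.35 ± 0.12. Rps27l, at 247 to 832 against 43.8 to 78.1 CPM, differed by 2.83 ± 0.27, and Rpl10 by 1.73 ± 0.19 (largest adjusted p of these 4 = 2.07e-07, edgeR).

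The liver comparisons depended on the scaling. In liver over cerebellum, 77 of 79 members were called higher and 0 lower, with a median log2 difference of 1.55, where 34.0% of all genes were called higher and 39.1% lower. By library totals alone 27 were higher and 3 lower (Rpl15, Rpl22l1 and Rpl23a), with a median of 0.53, since that scaling moves the median of all genes by about 1 log2 unit, from -0.11 to -1.10. Relative to the median gene the members were thus higher in liver under both. Rps27l (3.48 ± 0.33, and 2.45 by library totals), Rps2 (2.74 ± 0.24, and 1.72), Rpl10 (2.69 ± 0.29, and 1.66) and Rpl4 (1.39 ± 0.15, and 0.38) had the smallest p and were called under both scalings. Without the liver of animal 13, 76 were called higher and the median was 1.03.

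In liver over kidney, 11 of 79 were called higher and 0 lower, with a median of 0.52, where 22.2% of all genes were called higher and 22.5% lower. By library totals alone the direction turned: 0 were higher and 4 lower (Rpl15, Rps3, Rpl23a and Rpl3), with a median of -0.35 beside -0.83 for all genes. With the animal as a block, 30 of 79 were called higher. Without the liver of animal 13, 7 were called and the median was 0.08. Rps2 (1.01 ± 0.24), Rpl4 (0.66 ± 0.17), Rpsa (0.95 ± 0.29) and Rpl12 (1.32 ± 0.40) had the smallest adjusted p. By library totals Rps2 was at 0.15 and Rpl4 at -0.18, neither called. No order of liver and kidney is read from these.

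Among themselves the members kept nearly the same order of level in every tissue. Per kilobase of transcript, in p150pos mice, Spearman's rho of the 83 levels was 0.98 between liver and kidney, 0.97 between kidney and cerebellum and 0.93 between liver and cerebellum. Rps14 (461 CPM per kilobase in liver, 669 in kidney, 300 in cerebellum), Rpl41 (396, 520 and 281) and Rplp1 (381, 432 and 253) were in the top 4 of each tissue. The 10 members with the most counts held 33.6 to 34.0% of the summed level.

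Rps27l differed from that order. It was the highest of the 83 per kilobase in liver (637 ± 403 CPM per kilobase, SD, n = 7) and kidney (745 ± 418, n = 7), ahead of Rps14. At 116 in cerebellum it ranked 25 of 83. Its tissue difference exceeded the median of the members by 1.93 (log2) for liver over cerebellum and 1.83 for kidney over cerebellum. Below the members' medians for liver over cerebellum lay Rpl23a (-1.47 from the median), Rpl22l1 (-1.33) and Rpl15 (-1.01). For kidney over cerebellum Rpl22l1 was at -0.88 from it. Its level was 18.0, 31.8 and 31.3 CPM per kilobase in liver, kidney and cerebellum. For Rpl22l1, neither tissue difference passed the test with all libraries (0.22 ± 0.36, adjusted p = 0.593, and 0.12 ± 0.48, adjusted p = 0.846, edgeR). Without the kidney of animal 5 its kidney level was 16.7 CPM per kilobase, and it was called lower in kidney than in cerebellum at -0.76 ± 0.26 (adjusted p = 0.0154, edgeR). These levels are on library totals, whereas the tests quoted here are not. Tested on library totals alone, Rpl22l1 was called lower in liver than in cerebellum, so direction and call depend on the scaling there.

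**Figure D5:**
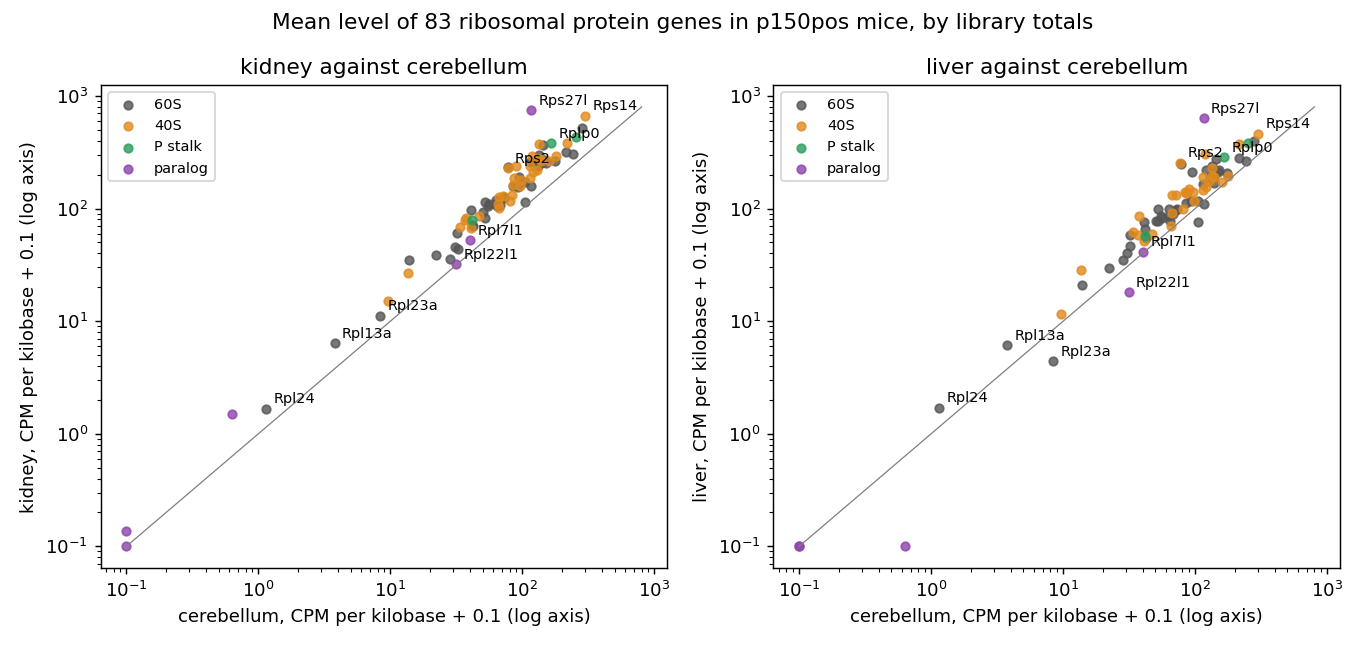
Mean level of each of the 83 genes in p150pos mice, in CPM per kilobase plus 0.1 by library totals, in kidney (left) and liver (right) against cerebellum, on log axes, with equal levels as a grey line. Most points run parallel to and above the line, Rps27l lies farthest above it (745 and 637 against 116), and Rpl22l1 lies below it for liver and on it for kidney (31.8 CPM per kilobase with animal 5, 16.7 without).

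At the low end of the standard proteins stood Rpl24 (1.60, 1.57 and 1.05 CPM per kilobase in liver, kidney and cerebellum), Rpl23a (4.31, 11.1 and 8.26) and Rpl13a (6.03, 6.27 and 3.67). The liver value of Rpl24 rested on animal 13: without it the level was 0.541, with 3 of 6 libraries at 0. The median member was at 111, 130 and 78.1. The table holds 283 entries named as ribosomal protein pseudogenes, and reads that fit more than one place can be dropped or split in counting. Of the transcript of Rpl24, 81.7% of 50-base stretches also occur in transcripts of other genes, of Rpl23a 85.7% and of Rpl13a 57.4%. Rpl10 shares 92.1% and was at 248 CPM per kilobase in liver. Among the 77 members that are not paralogs, the 23 that share at least 75% in liver had a median level of 98.7 CPM per kilobase, the 45 that share 25 to 75% one of 139, and the 9 below 25% one of 117. The level of a single member with such copies is uncertain, and its part in the low values was not tested. Levels per kilobase and shared stretches also rest on 1 annotated transcript per gene. That transcript is long for Rps15a (5130 bases, 6.14% shared, 11.5 CPM per kilobase in liver) and Rps20 (3706 bases, 7.57%, 28.5).

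Genes that work with the ribosomal proteins were read from lists. Fau, which encodes the 40S protein S30 fused to a ubiquitin-like protein, was at -0.11 ± 0.34 in liver, 0.28 ± 0.31 in kidney and 0.55 ± 0.24 in cerebellum. Of the translation factors and other TOP messenger RNAs, 0 of 21 tested were called by edgeR in liver, 0 of 21 in kidney and 0 of 22 in cerebellum, with medians of -0.08, 0.08 and 0.11. Eif3f was highest of those named in cerebellum at 0.48 ± 0.18 (adjusted p = 0.339, edgeR).

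Of 63 ribosome biogenesis factors tested in liver, 1 was called higher and 0 lower: Eif6, which keeps the subunits apart until the 60S is mature, at 0.58 ± 0.14 (adjusted p = 0.00850, edgeR). Over all genes in liver 6.94% were called higher and 4.76% lower. In kidney and cerebellum 0 of 63 were called, with medians of -0.06 and -0.08. Among regulators of growth and ribosomal protein synthesis, Deptor, an inhibitor of mTOR, was called lower in liver at -0.66 ± 0.19 (adjusted p = 0.0231, edgeR), 1 of 23 tested. In kidney and cerebellum 0 of 25 were called. Myc, the transcription factor that drives ribosome production, was at 1.92 ± 0.51 in kidney (adjusted p = 0.122, edgeR).

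The proteins of the mitochondrial ribosome are encoded by separate nuclear genes and served for comparison. Of 77 tested in liver, 2 were called lower in p150neg mice, where 4.76% of all genes were, Mrpl9 at -0.60 ± 0.17 (adjusted p = 0.0255, edgeR) and Mrpl49 at -0.66 ± 0.19 (adjusted p = 0.0264, edgeR). Their medians were -0.22, -0.36 and -0.03 in liver, kidney and cerebellum, with 11, 6 and 35 of 77 above 0. In kidney and cerebellum 0 were called by edgeR. With all kept kidneys, the cytosolic and the mitochondrial medians thus lay on different sides of 0. The difference was not tested. Without the kidney of animal 3 the cytosolic median also lay below 0, as given above. In the kidney of animal 3 the mean deviation (log2) was 0.93 for the cytosolic and -1.20 for the mitochondrial genes.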

How the data were processed

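RNA-seq counts of 46 libraries were used. Per the labels' protocols, total RNA came from TRIzol extraction and libraries from the Nextera XT kit. The authors deposited raw read counts per gene, 1 column per library. STAR 2.4.2a and HTSeq 0.4.1 on GRCm38 are named, per the submitters' processing notes; annotation release and strand setting are not given in the sources used here. Repeated identifiers (6, with identical counts) were used once; the 3433 entries without a symbol held 0.267% of counts and stayed in the tests. No libraries were identical. Genotype, tissue and animal came from the labels.

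Each tissue was fitted with edgeR 4.0.16 in R 4.3.3 (quasi-likelihood, TMM, filterByExpr with a minimum count of 10 and total of 15), with Benjamini-Hochberg adjustment over all genes tested and a threshold of 0.05; the fit was tested on simulated data. DESeq2 1.42.0 and limma 3.58.1 (voom) were alternatives. CPM are on library totals. Log2 CPM, used for the components, correlations and deviations, are on TMM-scaled totals of the genes tested, with a prior count of 2. Positions, transcript lengths and shared 50-base stretches are from GENCODE M21 (GRCm38), which holds 99.6% of identifiers, and start sequences from RefSeq. Some named genes are not reported here. Libraries of 1 animal pair by its number, per the labels; same-animal deviations correlated from -0.01 to 0.25 between liver and kidney, -0.01 to 0.25 between liver and cerebellum and -0.19 to 0.21 between kidney and cerebellum. Named genes are the 5 smallest unadjusted p per tissue, the paralogs, 17 members whatever they showed, the 4 smallest adjusted p of each tissue comparison, Fau and up to 3 genes of each list. The members and lists were chosen with earlier results of these data known. The labels do not say more of the replicates than the animal number. Rpl41, Rps14, Rpl15, Rpl23a, Rpl24 and Rpl12 in the kidney correlations were named after their values were seen.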

Additional observations from a re-analysis of the deposited data

Results flagged for a closer look

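In 36 groups of libraries (6 quantities in 6 groups), 14 values stood apart from the rest of their group; chance alone marks about 1 in 20 groups, and the quantities share libraries. The summed ribosomal protein level stood apart at the top in the p150pos liver of animal 13 (20717 CPM, next 10711), the p150neg kidney of animal 3 (24111 CPM, next 11957) and the p150pos kidney of animal 5 (19933 CPM, next 11843).

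The same 3 libraries carried most of the single genes that stood apart, each as the highest of its group. In the liver of animal 13 these were Rps27l at 747 CPM, Rplp0 at 670, Rpl22l1 at 25.5 and Rpl13a at 19.3. In the kidney of animal 3 they were Rplp0 at 713 CPM, Rps27l at 576 and Rps6 at 141. In the kidney of animal 5 they were Rps27l at 832 CPM, Rpl22l1 at 67.7 and Rpl13a at 14.6. Outside them, Rplp0 stood apart in the p150neg liver of animal 11, at 568 CPM beside 414 for the next.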

How the results depend on the processing

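No ribosomal protein gene was called in liver, kidney or cerebellum under any alternative run (RLE factors, library totals, TMM without the members, no or a stricter filter, DESeq2, voom, all labelled libraries, each library left out, a minimum of 1000000 or 1500000 counts, and a block on the leading letters of each animal's identifier), and none in an interaction, also with the animal as a replicate block (0 in all 3 pairs). With 1 library left out, the members' median ran from -0.42 to 0.17 in liver, -0.12 to 0.36 in kidney and 0.20 to 0.41 in cerebellum; with the identifier block it was -0.05 in liver, with 36 of 77 above 0. Of 1772 values of named members under alternatives, 1720 moved by less than their standard error, 52 by more and 0 became called; the cause was not tested. The animal block gave 30 members for liver over kidney; in the interactions it turned 8 members at an unadjusted p under 0.05 into 0 for liver against cerebellum, and the genes called among all from 376 to 197 there and 17 to 9 for kidney against cerebellum; for liver against kidney it left 117, also a fall by over 1.5 times. For liver over kidney, all labelled libraries gave 5, library totals 4, without the liver of animal 13 7, and without that liver and the kidney of animal 5 21. Library totals gave 30 for liver over cerebellum. Counts over all genes, 1152 in liver, were 726 with the stricter filter and 740 with all labelled libraries. In kidney, 83 became 141 with no filter, 306 with DESeq2, 1 with all labelled libraries, 211 without libraries under 1000000 counts, 32 with the identifier block, 532 without those under 1500000 (animals 3 and 5), and 34 to 211 with 1 library left out. In cerebellum, 131 became 287 with DESeq2 and 62 with voom. Alternatives by 1500000 counts, libraries standing apart, and library totals between tissues were added after seeing the data. Depth limits Rpl13a, Rpl23a, Rpl24 and Rpl3l, at a median of 16 counts or fewer per library.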
